A study of Macaca mulatta with 12 samples.

Results

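The comparison described here is that of adding progesterone to estrogen in the dorsal raphe nucleus of female rhesus macaques: 3 monkeys that carried estrogen and progesterone capsules were set against 3 that carried estrogen capsules only. These 6 arrays were chosen by their titles out of 12 in the series, the other groups being 3 monkeys with progesterone capsules and 3 with placebo capsules. Arrays of the progesterone group are titled with that hormone alone, yet numbered EP1 to EP3 like the combined group, whereas their source names are P1 to P3; they are taken here as progesterone without estrogen on that basis, and each value for them rests on it. The Silastic capsules lay under the skin for 1 month before the tissue was taken. The placebo labels carry OVX, the usual abbreviation for ovariectomy, which the labels of the hormone groups do not repeat, and no label gives an age, a dose or a blood steroid level. Each array holds the RNA of 1 monkey, so a difference between arrays includes both animal and array variation. The array carries probes for human transcripts; how well the macaque sequence matches them affects the signal too, so no gene's level is compared with another's.

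Progesterone acts through nuclear receptors that switch target genes, through membrane-associated receptors, and after conversion to allopregnanolone through GABA-A receptors. Estrogen induces the nuclear progesterone receptor in many tissues, among them the serotonin neurons of the macaque dorsal raphe, which is why progesterone is often studied after estrogen priming. The question put to the data here is which transcripts in this serotonin-producing nucleus differed when progesterone was present on top of estrogen.

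Genes typical of serotonin neurons gave signal in both groups. The serotonin transporter SLC6A4 read 456, 495 and 220 with estrogen plus progesterone and 361, 388 and 377 with estrogen. The vesicular transporter SLC18A2, the decarboxylase DDC and the transcription factors FEV and GATA3 were also bright enough to test. That limit was set on the mean of a probe set in the whole series, not on single arrays. Of 31 defining markers of the cell types such a dissection could hold, 28 had a single-symbol probe set and 26 were bright enough to test; the choroid plexus gene TTR and the cerebellar granule cell gene GABRA6 were too dim. The cerebellar markers CBLN1 and ZIC1 did pass the brightness limit, so passing it cannot establish the identity of the tissue. ZIC1 read 111, 275 and 125 with estrogen plus progesterone and 183, 462 and 112 with estrogen, and CBLN1 averaged 131 ± 41.0 with estrogen plus progesterone and 134 ± 32.8 with estrogen (SD, n = 3 each). In bulk tissue, fewer cells of a type and less RNA per cell cannot be told apart.

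Array 1 of each group stood apart from the rest of the series. The 28S ribosomal RNA control read 1354 on estrogen plus progesterone array 1 and 841 on estrogen array 1, and at most 179 on any other array. On the same arrays, in that order, GAPDH gave 2.05 and 2.45 times as much signal from its 3′ as from its 5′ control probes, and at most 1.46 times as much elsewhere. Because each group holds 1 of them, differences are also given between these arrays alone (array 1 minus array 1) and between the means of arrays 2 and 3, and these values are called the high-28S difference and the other-array difference. The median SD of a probe set on the log2 scale was 0.25 over the 3 estrogen plus progesterone arrays and 0.29 over the 3 estrogen arrays, and it was 0.15 in both groups over arrays 2 and 3.

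No probe set passed the threshold. Of 7535 tested, 0 (0%) had a limma adjusted p under 0.05, and the smallest adjusted p was 0.999995. At an unadjusted p under 0.05 there were 216 (2.87%), 112 higher (1.49%) and 104 lower (1.38%) with estrogen plus progesterone, where 5% of the tested probe sets would be 376.75. With the replicate number as a block in a fit of the 6 arrays, this count was 350, and without estrogen array 1 it was 472; 0 passed the adjusted threshold in either fit. For 508 probe sets (6.74%) the groups did not overlap, in that each estrogen plus progesterone array exceeded every estrogen array or the reverse. On the higher side were 273 of the tested probe sets (3.62%) and on the lower 235 (3.12%). The 5% above is no reference for this count, which comes from no test. Differences were mostly small: the median size was 0.15 on the log2 scale, and 52 probe sets differed by more than 1, 27 higher and 25 lower. A typical probe set had a standard error of 0.24 and a 95% interval of 0.52 to either side, which holds before any adjustment. The highest difference, 2.22, was not called at the adjusted threshold. Its own standard error was 0.65, so its size does not mark a limit of detection. Everything named from here on is a ranking of measured differences, and no gene below is a called change.

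**Figure D1:**
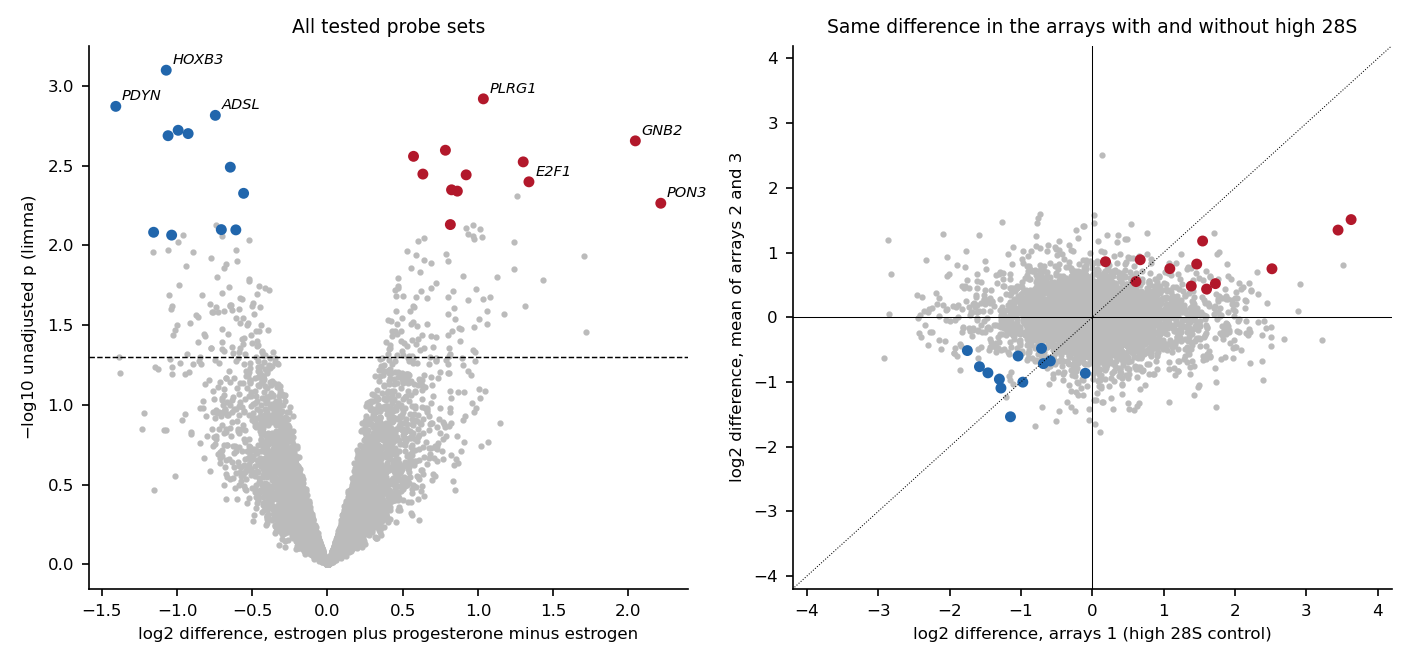
Left, the log2 difference of every tested probe set (estrogen plus progesterone minus estrogen) against the −log10 unadjusted p from limma, with the 12 named higher genes in red, the 12 named lower genes in blue and a dashed line at the unadjusted threshold. Right, the other-array difference (arrays 2 and 3) against the high-28S difference (array 1 minus array 1) on the log2 scale; the cloud is wider along the high-28S axis, where each value rests on 1 array per group.

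The 12 named genes on the higher side ranged from 0.57 to 2.22 on the log2 scale. They include the splicing factor PLRG1, the G-protein subunit GNB2, the cell cycle transcription factor E2F1, the lactonase PON3, the kinase MAPKAPK3 and the cytoskeletal genes FSCN2, PARVB and CROCC. In 10 of the 12 the high-28S difference was the larger, with a median of 1.5, against a median of 0.79 for the other-array difference. That each of these genes lay higher on every estrogen plus progesterone array follows from the way they were chosen and is not a result.

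PLRG1, which belongs to the Prp19 complex of the spliceosome, read 159, 112 and 73.0 with estrogen plus progesterone and 57.4, 51.5 and 38.8 with estrogen. The log2 difference was 1.04 ± 0.24 (SE), 1.46 in the high-28S arrays and 0.82 in the others. The 3 progesterone arrays read 77.4, 110 and 68.4 and the 3 placebo arrays 50.1, 60.2 and 56.2, and after normalization the estrogen group lay below all 9 other arrays, with placebo close above it.

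GNB2 encodes a β subunit of heterotrimeric G proteins. Its bright probe set read 1884, 1522 and 1882 with estrogen plus progesterone and 182, 1241 and 352 with estrogen, and all 9 arrays outside the estrogen plus progesterone group lay below the lowest of that group. The difference of 2.05 ± 0.53 was 3.44 in the high-28S arrays and 1.35 in the others. It depended on estrogen array 2: without that array the difference was 2.80 with a limma adjusted p of 0.0181, the only call among the named genes under any alternative. A separate probe set of GNB2 read 743, 829 and 845 with estrogen plus progesterone and 697, 885 and 931 with estrogen, a difference of −0.04 with arrays that overlapped fully.

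PON3, a lactonase of the paraoxonase family, had the highest difference of all tested probe sets at 2.22 ± 0.65, being 3.63 in the high-28S arrays and 1.51 in the others. It read 163, 123 and 180 with estrogen plus progesterone and 7.67, 90.9 and 19.3 with estrogen, so 2 of the 3 estrogen arrays were near the dim end of the scale. The placebo arrays spread from 52.6 to 172 and covered most of the estrogen plus progesterone range.

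E2F1, a transcription factor that drives entry into DNA synthesis, read 173, 99.0 and 112 with estrogen plus progesterone and 28.4, 47.7 and 65.7 with estrogen. Every array of the other groups lay below the lowest estrogen plus progesterone array. The difference of 1.34 ± 0.38 was 2.52 in the high-28S arrays and 0.75 in the others, and a separate E2F1 probe set gave −0.11 ± 0.21.

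POFUT2, which adds fucose to thrombospondin repeats of secreted proteins, was the tightest of the higher genes. It read 167, 157 and 178 with estrogen plus progesterone and 111, 105 and 111 with estrogen, while the progesterone arrays lay between 101 and 130 and the placebo arrays between 103 and 111. The estrogen plus progesterone group therefore stood above all 9 other arrays. Its difference of 0.57 ± 0.15 hardly moved between the high-28S arrays (0.61) and the others (0.55).

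PARVB, a focal adhesion protein that links integrins to actin, read 355, 470 and 439 with estrogen plus progesterone and 316, 256 and 237 with estrogen. Here the high-28S arrays differed least, by 0.19, and the other arrays by 0.86. A dimmer PARVB probe set lay on the same side at 0.33 ± 0.20, with overlapping arrays. The 6 progesterone and placebo arrays read 327 to 424, so that the estrogen group was again the set apart.

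CROCC, the main protein of the ciliary rootlet, read 136, 77.6 and 64.9 with estrogen plus progesterone and 39.9, 51.4 and 38.4 with estrogen, a difference of 0.92 ± 0.25 that was 1.73 in the high-28S arrays and 0.52 in the others. It lay above all 9 other arrays in the estrogen plus progesterone group. MAPKAPK3, a kinase activated by p38, differed by 1.30 ± 0.35. It read 84.4, 83.8 and 65.4 with estrogen plus progesterone and 27.5, 10.2 and 53.0 with estrogen. Estrogen array 2 was thus near the dim end of the scale. Probe sets of MAPKAPK3 that were too dim to test gave −0.05 and −0.17. FSCN2, an actin-bundling fascin of the retina, differed by 0.78 ± 0.21, which was 1.39 in the high-28S arrays and 0.48 in the others. The neuropeptide GHRH, which releases growth hormone, differed by 0.82 ± 0.24, which was 1.6 in the high-28S arrays and 0.44 in the others. The photoreceptor calcium sensor RCVRN differed by 0.86 ± 0.25 and the granulocyte growth factor receptor CSF3R by 0.82 ± 0.25. For FSCN2 and RCVRN it was the estrogen group that lay below the other 9 arrays, and for MAPKAPK3, GHRH, PON3 and CSF3R neither group stood outside them all.

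**Figure D2:**
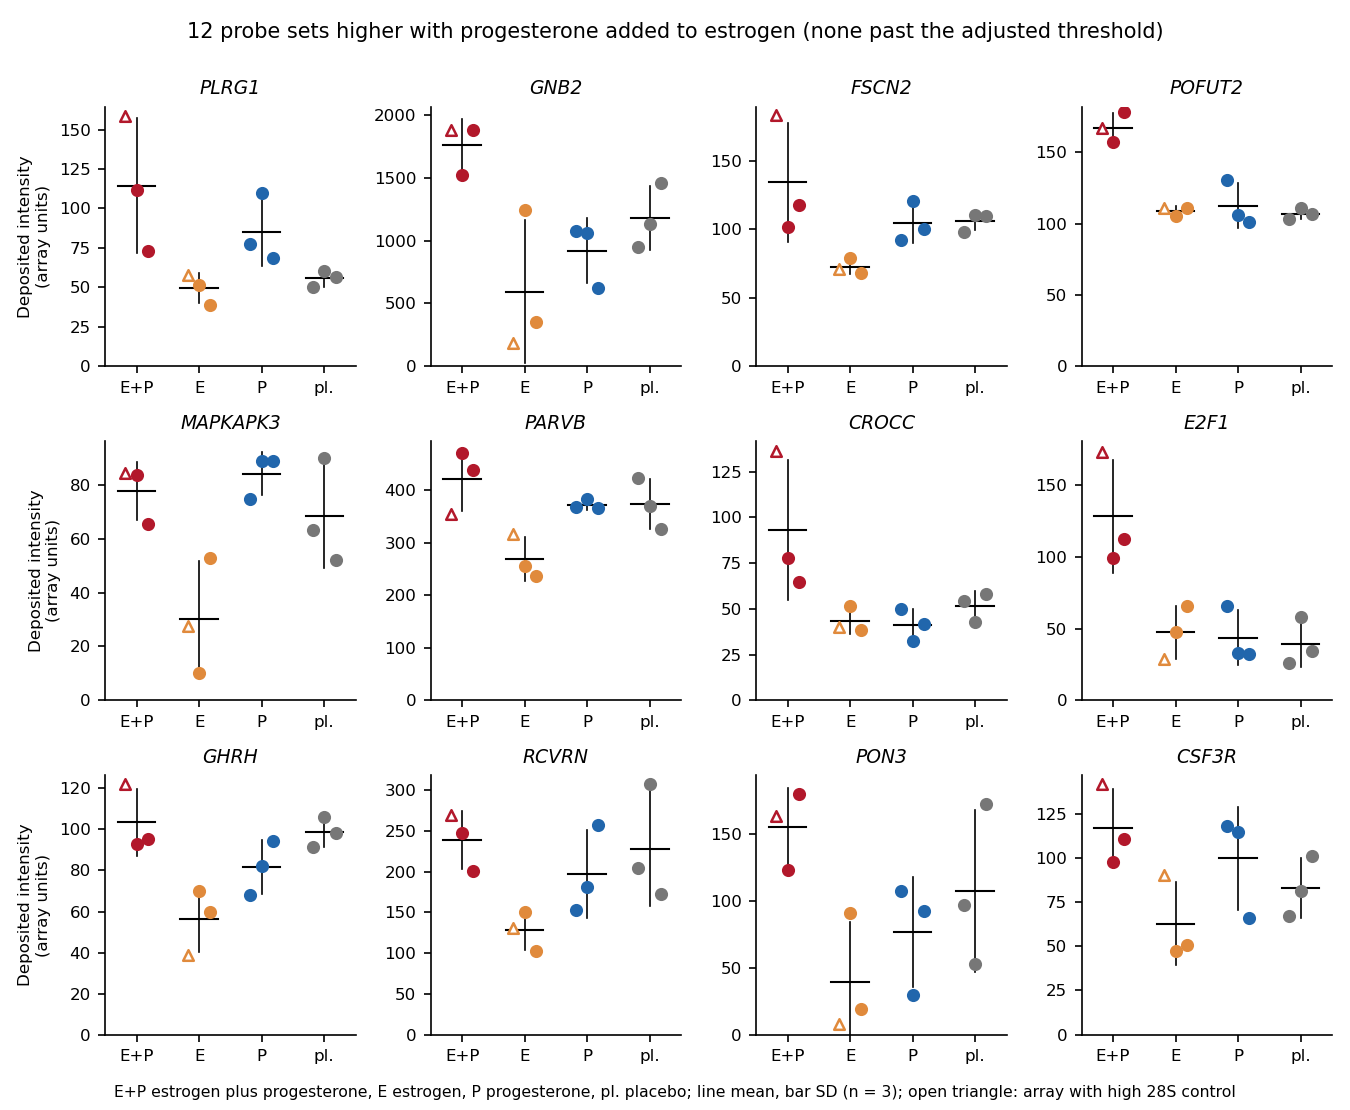
Deposited intensity (array units, linear axis from 0) of the 12 named higher probe sets in every array, by treatment, with the mean as a line and the SD as a bar (n = 3). Open triangles mark the arrays with a high 28S control; the triangle is the top estrogen plus progesterone point for PLRG1, FSCN2, CROCC, E2F1 and GHRH, among others.

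The 12 named genes on the lower side ranged from −1.41 to −0.56. They include 4 regulators of transcription (HOXB3, TBX1, FOSB and PSIP1), the opioid precursor PDYN, the ubiquitin ligase components BTRC and UBE3A, the metabolic enzymes ADSL and PCCA, the RNA-binding protein HNRNPK, the adhesion protein NECTIN3 and TTC9. In 7 of the 12 the high-28S difference was the larger, with a median of −1.09, against −0.81 in the other arrays. Of these 12 genes, 8 had a mean under 100 intensity units with estrogen plus progesterone.

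PDYN encodes prodynorphin, the precursor of the dynorphin peptides that act on κ opioid receptors. It read 20.8, 24.4 and 23.5 with estrogen plus progesterone and 55.0, 79.6 and 92.4 with estrogen, and the estrogen plus progesterone arrays were the lowest 3 of the series. The difference of −1.41 ± 0.34 was −1.15 in the high-28S arrays and −1.54 in the others. In monkeys without estrogen, which share no array with this comparison, PDYN read 63.3, 35.0 and 27.3 with progesterone and 124, 94.3 and 55.8 with placebo, a difference of −1.03 ± 0.34 that did not pass the threshold either (unadjusted p = 0.010, limma adjusted p = 0.442).

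HOXB3, a homeobox gene of the embryonic hindbrain, had the smallest p of all the named genes. It read 41.3, 49.2 and 29.3 with estrogen plus progesterone and 109, 89.4 and 71.5 with estrogen, a difference of −1.07 ± 0.24 that was −1.30 in the high-28S arrays and −0.96 in the others. Without estrogen it read 35.2, 53.7 and 31.9 with progesterone and 61.5, 52.1 and 92.9 with placebo, a difference of −0.69 ± 0.24 (unadjusted p = 0.014, limma adjusted p = 0.503). PDYN and HOXB3 were the only 2 of the 24 named genes with an unadjusted p under 0.05 for progesterone without estrogen, where 8.24% of tested probe sets had one.

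ADSL, an enzyme of purine synthesis, read 82.4, 89.9 and 100 with estrogen plus progesterone and 174, 133 and 158 with estrogen. The lowest of the 6 progesterone and placebo arrays was at 116, so the estrogen plus progesterone group was below all 9 others. The difference was −0.75 ± 0.18, being −1.04 in the high-28S arrays and −0.60 in the others. PCCA, a subunit of the mitochondrial propionyl-CoA carboxylase, likewise lay below the 9 other arrays. It read 19.6, 18.1 and 39.7 with estrogen plus progesterone and 66.2, 60.2 and 51.6 with estrogen, a difference of −1.06 ± 0.27 that was −1.46 in the high-28S arrays and −0.86 in the others.

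BTRC, the substrate receptor of an SCF ubiquitin ligase that degrades β-catenin and IκB, read 40.9, 63.6 and 72.6 with estrogen plus progesterone and 148, 104 and 90.8 with estrogen. The estrogen plus progesterone arrays lay below the other 9 for this probe set, with a difference of −0.93 ± 0.23 that was −1.75 in the high-28S arrays and −0.51 in the others. The 2 other tested BTRC probe sets gave 0.23 and 0.21, on the opposite side. For UBE3A, the ubiquitin ligase lost in Angelman syndrome, the disagreement was partial. The named probe set differed by −0.56 ± 0.16. Of the others bright enough to test, 1 lay on the opposite side at 0.34 and 1 on the same side at −0.21.

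TTC9, a tetratricopeptide repeat protein first described in breast cancer cells as hormonally regulated, read 210, 225 and 274 with estrogen plus progesterone and 410, 505 and 498 with estrogen. The 6 remaining arrays ran from 188 to 370, so the estrogen group lay above all others and the estrogen plus progesterone group lay among the rest. The difference of −0.99 ± 0.25 was nearly equal in the high-28S arrays (−0.97) and the others (−1.0).

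HNRNPK, an abundant nuclear RNA-binding protein, read 2938, 1769 and 2082 with estrogen plus progesterone and 3114, 3619 and 3441 with estrogen. Its difference of −0.61 ± 0.19 was −0.10 in the high-28S arrays and −0.86 in the others. FOSB, an immediate early transcription factor of the AP-1 family, read 132, 84.2 and 204 with estrogen plus progesterone and 391, 233 and 219 with estrogen. Its difference was −1.04 ± 0.33, being −1.58 in the high-28S arrays and −0.76 in the others, and the third estrogen plus progesterone array and the third estrogen array lay close together.

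NECTIN3, a synaptic adhesion protein, differed by −0.65 ± 0.18 and after normalization lay below all 9 other arrays with estrogen plus progesterone. The chromatin-bound coactivator PSIP1 differed by −0.71 ± 0.22 and the T-box factor TBX1 by −1.16 ± 0.36, and neither group of these genes stood outside all other arrays. A separate TBX1 probe set showed a difference of 0.00 ± 0.27. Among the 24 named genes, 6 had further probe sets bright enough to test, 8 in all. By sign, 3 of these 8 lay on the same side as the named one, the TBX1 probe set at 0.00 being among them. Of the 8, 0 reached an unadjusted p under 0.05.

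**Figure D3:**
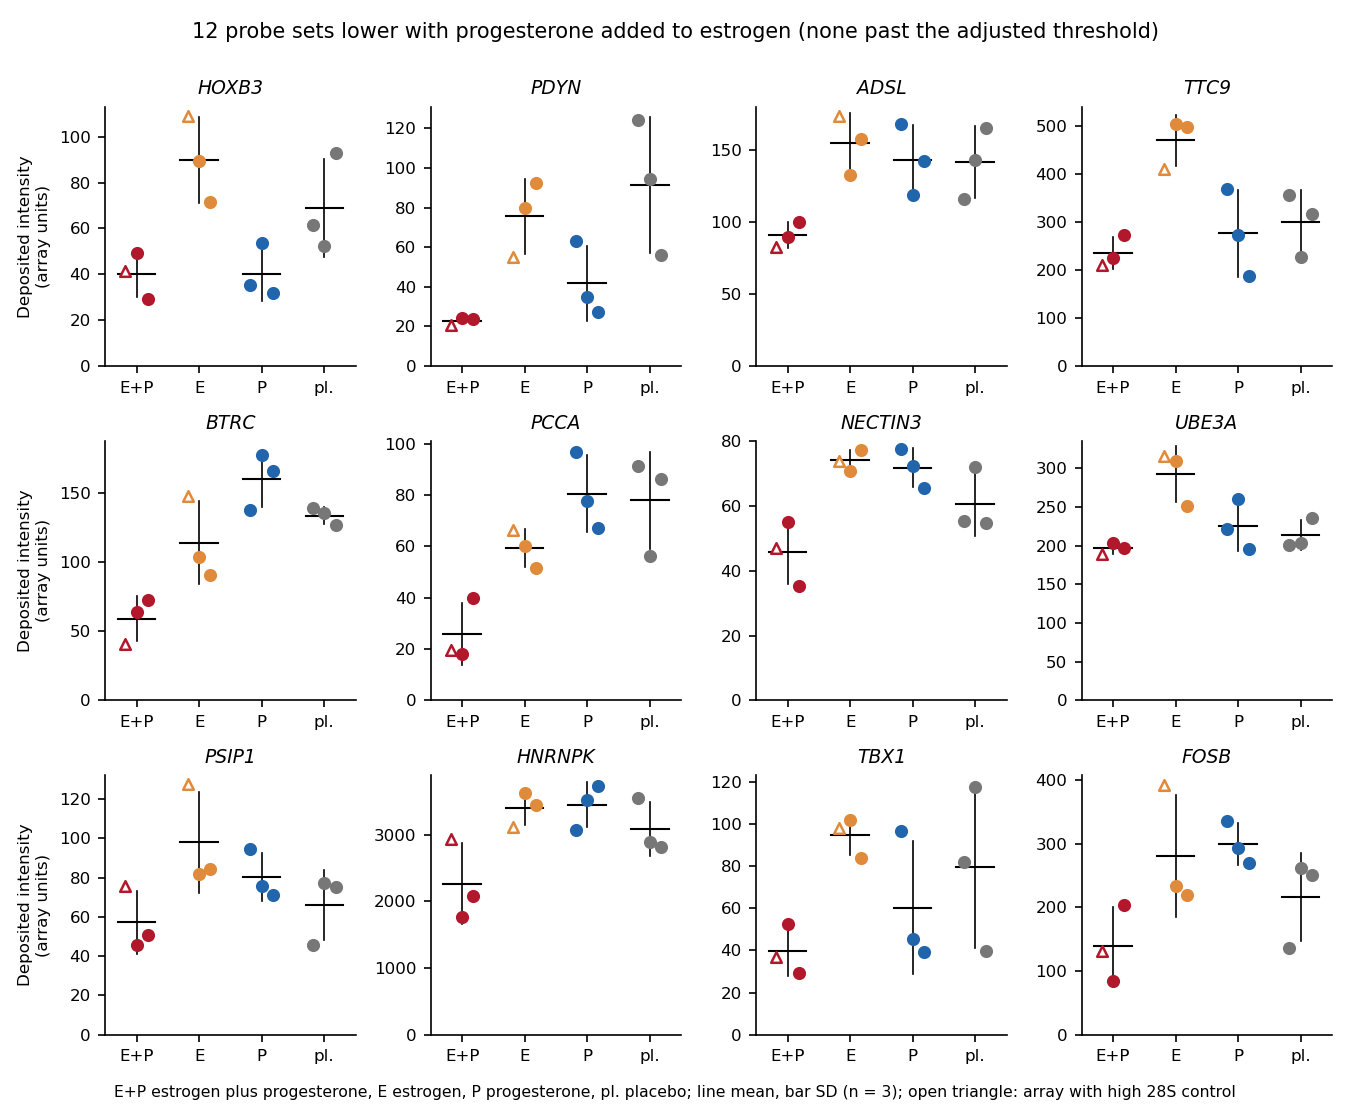
Deposited intensity (array units, linear axis from 0) of the 12 named lower probe sets in every array, by treatment, with the mean as a line and the SD as a bar (n = 3). For PDYN, ADSL, BTRC and PCCA the 3 estrogen plus progesterone arrays lie below all 9 others; for TTC9 the 3 estrogen arrays lie above all 9 others.

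Genes read by several probe sets have further readings from the same RNA, which are not replicates. Whether such probe sets read the same transcript was not tested. Of 934 genes with more than 1 tested probe set, 3 had at least 2 at an unadjusted p under 0.05 in the same direction, and all of them were higher with estrogen plus progesterone. MAP1B, a microtubule-associated protein of growing axons, read 1321, 1026 and 1849 with estrogen plus progesterone and 940, 744 and 470 with estrogen on its brighter such probe set. The dimmer read 336, 307 and 272 with estrogen plus progesterone and 199, 156 and 73.5 with estrogen. The differences were 0.97 ± 0.40 and 1.12 ± 0.40, the arrays of the groups did not overlap on either, and both were larger in the other arrays (1.22 and 1.31) than in the high-28S arrays (0.48 and 0.76). The third MAP1B probe set went the other way, with −0.21 ± 0.17.

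ITSN1, an endocytic scaffold at synaptic vesicles, read 463, 402 and 460 with estrogen plus progesterone and 327, 364 and 266 with estrogen on its brighter probe set, a difference of 0.47 ± 0.17. Its dimmer probe set differed by 1.02 ± 0.33, and by 2.22 in the high-28S arrays against 0.43 in the others. COL11A2, a fibrillar collagen chain, differed by 1.08 ± 0.41 and 0.56 ± 0.19 on a pair of probe sets and by 0.13 ± 0.31 on the third. The first of these was 2.19 in the high-28S arrays and 0.53 in the others, and the next 0.92 and 0.38.

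Receptors for progesterone were sparsely read. The nuclear receptor PGR was below the brightness limit: its probe set read 6.87, 1.46 and 1.05 with estrogen plus progesterone and 2.01, 4.56 and 1.05 with estrogen, all under the offset of 8.26 that was added before taking logs, so no difference could be read. PGRMC2, a membrane-associated progesterone-binding protein, read 272, 241 and 216 with estrogen plus progesterone and 334, 286 and 177 with estrogen, a difference of −0.10 ± 0.22. NENF, a secreted member of the same protein family, differed by −0.16 ± 0.30. Of 29 measured genes known from other tissues to respond to progestins, 15 were higher and 14 lower, 0 had an unadjusted p under 0.05, and the median was 0.00, against −0.01 over the 5499 genes measured. Of those genes, 2.71% had an unadjusted p under 0.05, and 6.95% had arrays that did not overlap. The progestin-responsive genes of smallest p were STAT5B at 0.77 ± 0.47 and the cell cycle inhibitor CDKN1A at −0.57 ± 0.41.

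The enzymes that make and convert steroids in brain showed 4 higher and 9 lower of 13 measured, none at an unadjusted p under 0.05, with a median of −0.04. SRD5A1, the 5α-reductase on the route from progesterone to allopregnanolone, read 118, 76.5 and 144 with estrogen plus progesterone and 85.7, 81.1 and 110 with estrogen, a difference of 0.23 ± 0.26. CYP17A1 was lowest in p at −0.33 ± 0.21 and HSD3B2, which makes progesterone, was at −0.31 ± 0.22. TSPO, a mitochondrial cholesterol-binding protein, was at 0.24 ± 0.29. Aromatase, CYP19A1, was at 0.18 ± 0.45 on its only tested probe set.

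Around PDYN, the rest of the opioid list did not share its difference. Of 11 measured opioid genes, 6 were higher and 5 lower. PDYN alone had an unadjusted p under 0.05, where 2.71% of all measured genes had one. Proenkephalin, PENK, read 571, 862 and 990 with estrogen plus progesterone and 567, 774 and 1038 with estrogen, a difference of 0.05 ± 0.26. PNOC, the nociceptin precursor, was at 0.16 ± 0.62, POMC at 0.18 ± 0.37, the nociceptin receptor OPRL1 at −0.23 ± 0.30 and the μ receptor OPRM1 at −0.04 ± 0.33. PNOC varied widely within both groups, from 82.8 to 332 with estrogen plus progesterone and from 66.4 to 361 with estrogen. The κ receptor OPRK1, on which dynorphin acts, was too dim to test, with 27.3, 16.5 and 18.3 with estrogen plus progesterone and 19.6, 13.2 and 19.6 with estrogen.

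Among 26 measured genes of the serotonin system, 11 were higher and 15 lower with a median of −0.01. MAOA, the monoamine oxidase that breaks down serotonin, was at −0.70 ± 0.26. It was the only one with an unadjusted p under 0.05, where 2.71% of all measured genes had one. Its arrays overlapped between the groups, and a separate MAOA probe set gave −0.21 ± 0.27. HTR1E, a serotonin receptor, was next at 0.22 ± 0.17. The GABA system had 6 higher and 9 lower of 15, with GABRA5, a GABA-A receptor subunit, at −0.83 ± 0.47, and the glutamate system 10 higher and 10 lower of 20, with the neuronal glutamate transporter SLC1A1 at 0.49 ± 0.25. In neither was any gene at an unadjusted p under 0.05.

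Lists of cell machinery were close to balance, with some that leaned to a side. Of 38 lists with at least 5 measured genes, 35 had a median within 0.1 of 0. Heat shock proteins and chaperonins had 22 higher and 7 lower of 29, which is 75.9%, where 48.7% of all measured genes were higher, with a median of 0.10 that lay between 0.07 and 0.16 under all 19 alternatives. The arrays of the groups did not overlap for 4 of the 29, all on the higher side, where 6.95% of all measured genes did not overlap. Only 1 of the 29 had an unadjusted p under 0.05, where 2.71% of all measured genes had one. CCT4, a subunit of the chaperonin that folds actin and tubulin, read 213, 249 and 266 with estrogen plus progesterone and 158, 135 and 161 with estrogen, a difference of 0.64 ± 0.22. HSF1, the heat shock transcription factor, read 268, 302 and 259 with estrogen plus progesterone and 179, 189 and 162 with estrogen, a difference of 0.62 ± 0.31, and a dimmer HSF1 probe set gave −0.32 ± 0.41. The lean was not shared by the 6 measured chaperonin subunits as a set, of which 3 were higher and 3 lower, from −0.13 to 0.64.

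Ribosomal proteins had 30 higher and 15 lower of 45, with a median of only 0.03 and 0 at an unadjusted p under 0.05. The hnRNP family of RNA-binding proteins had 4 higher and 12 lower of 16 with a median of −0.09, which was 0.03 in the high-28S arrays and −0.16 in the others. HNRNPK was the member of smallest p, and HNRNPDL lay opposite to it at 0.69 ± 0.29. Proteasome subunits had 12 higher and 20 lower of 32, with a median of −0.06 and 0 at an unadjusted p under 0.05. Splicing factors, the list that holds PLRG1, had 15 higher and 23 lower of 38.

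Homeobox genes had the lowest median of the lists, −0.17, with 5 higher and 8 lower of 13; 47 were on the list, so that most were too dim or not read by a single-symbol probe set. HOXB3 and HOXD10, a posterior HOX gene, were the 2 of 13 at an unadjusted p under 0.05, where 2.71% of all measured genes had one; HOXD10 was at −0.74 ± 0.23, with −1.24 in the high-28S arrays and −0.49 in the others. The list's median was −0.35 in the high-28S arrays and −0.03 in the others, and it changed sign, to 0.05, in 1 of 19 alternatives. G-protein subunits and RGS genes, which hold GNB2, had 16 higher and 12 lower of 29, 1 difference being 0, with RGS5, a pericyte gene, at 0.53 ± 0.23. The actin list had 14 higher and 12 lower of 26, including FSCN2 and the actin-binding TWF1 at 0.45 ± 0.17. Of 18 immediate early genes 9 were higher and 9 lower, so that FOSB did not stand for its list, and the cell cycle list had 16 higher and 18 lower of 34, with the kinases CDK6 and CDK1 at −0.96 ± 0.30 and −0.94 ± 0.32.

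**Figure D4:**
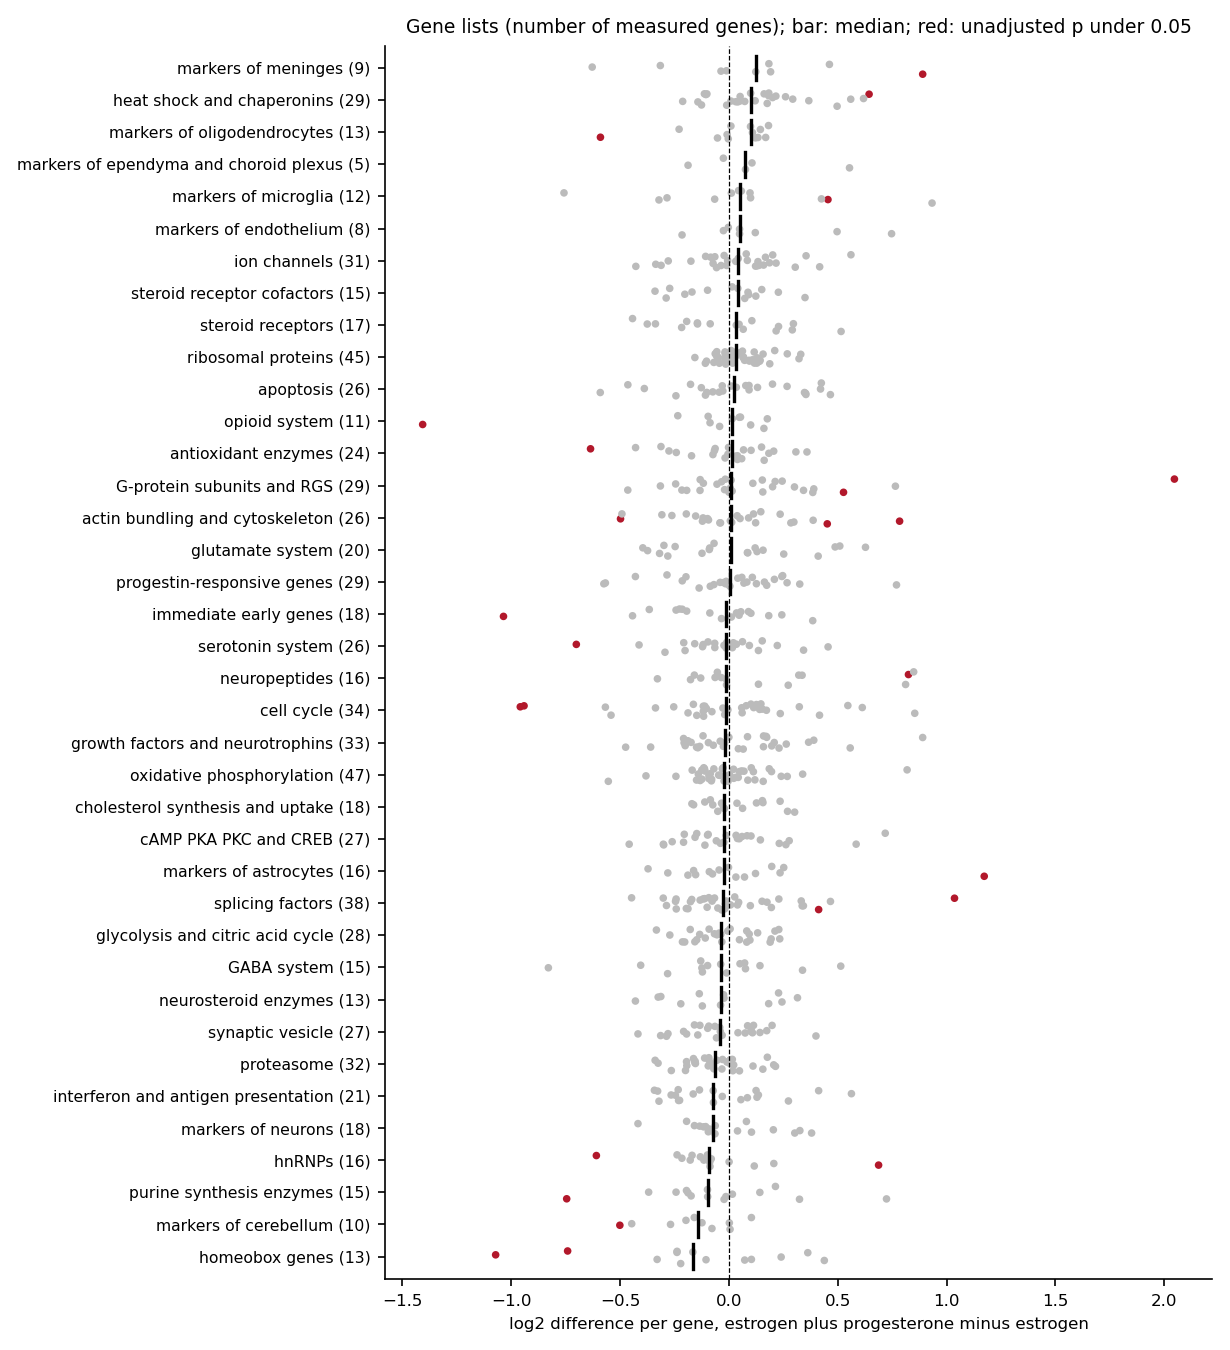
Log2 difference (estrogen plus progesterone minus estrogen) of each measured gene in the 38 lists with at least 5 measured genes, ordered by median (black bar); the number of measured genes stands in parentheses and red points have an unadjusted p under 0.05. Medians lie between −0.17 for homeobox genes and 0.12 for markers of meninges, and every list holds genes on both sides of 0.

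Markers of cell types were given the same reading, since dissections can differ. The summed intensity of 18 neuronal markers ran from 43940 to 48830 with estrogen plus progesterone and from 42013 to 55001 with estrogen. For 13 oligodendrocyte markers the sums ran from 20883 to 26204 with estrogen plus progesterone and from 17753 to 23943 with estrogen. For 16 astrocyte markers they ran from 18185 to 19744 with estrogen plus progesterone and from 17723 to 19160 with estrogen. For 10 cerebellar markers the sums ran from 4270 to 5532 with estrogen plus progesterone and from 4945 to 6301 with estrogen, and for 9 markers of meninges from 4688 to 6011 with estrogen plus progesterone and from 3777 to 6165 with estrogen. The ranges of the groups overlapped in each case. The cerebellar list had 3 higher and 7 lower and, after homeobox genes, the lowest median of the lists, −0.14; the neuronal transcription factor NEUROD2 was at −0.50 ± 0.22. The list of meninges had the highest median, 0.12, with 5 higher and 4 lower, and ALDH1A2, a retinoic acid-making enzyme, at 0.89 ± 0.37. CD68, a lysosomal protein of microglia, was separate between the groups at 0.45 ± 0.17, while the microglial AIF1 and CSF1R were at 0.10 ± 0.23 and 0.01 ± 0.25. Of 12 microglial markers 8 were higher and 4 lower. The 3 without overlap were all higher, where 6.95% of all measured genes did not overlap. Summed intensities of the 12 overlapped, from 1908 to 2461 with estrogen plus progesterone and from 2109 to 2306 with estrogen. NDRG2, listed with astrocytes, was at 1.17 ± 0.47 with arrays that overlapped. The astrocyte genes GFAP and AQP4 were at 0.03 ± 0.16 and 0.07 ± 0.20. S100B, a further astrocyte gene, was lower at −0.37 ± 0.25 with arrays that did not overlap. In the astrocyte list 7 were higher and 9 lower of 16. The 2 without overlap were both lower, set beside the same 6.95% of all measured genes. The oligodendrocyte gene UGT8 was at −0.59 ± 0.27, while MBP was at 0.11 ± 0.15. The part of cell composition in the differences above was not tested.

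The design also allows the progesterone difference with estrogen to be set against the progesterone difference without it, in arrays from other monkeys. Across the 7535 tested probe sets, which are not independent replicates, the log2 differences correlated at r = −0.01, and at 0.04 without the high-28S arrays. The sign was the same for 51.6% of probe sets. It was the same for 10 of the 24 named genes, 6 of the 12 higher and 4 of the 12 lower. The genes that were lower with progesterone in both settings were HOXB3, PDYN, TTC9 and TBX1, the last pair at −0.11 ± 0.25 and −0.37 ± 0.36 without estrogen. GNB2 and PON3, the named genes furthest on the higher side, were at −0.37 ± 0.53 and −0.49 ± 0.65 without estrogen.

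The difference between the settings was tested as an interaction. Of 7535 probe sets, 0 (0%) had an adjusted p under 0.05 and 376 (4.99%) had an unadjusted p under 0.05. The smallest limma adjusted p was 0.439 over all probe sets and 0.914 over the 24 named genes, so no named difference was shown to depend on estrogen. Without estrogen, 3 probe sets (0.0398%) passed the adjusted threshold, for the lysophospholipid acyltransferase LPCAT4, for UBXN7, an adaptor of the p97 ATPase, and for PRRC2C, a protein of stress granules. LPCAT4 read 84.1, 154 and 164 with estrogen plus progesterone and 91.4, 131 and 121 with estrogen, a difference of 0.16 with a 95% interval from −0.46 to 0.78, against −2.24 ± 0.28 without estrogen. PRRC2C was at 0.00, with an interval from −0.46 to 0.47, against 1.46 ± 0.21 without estrogen, and UBXN7 at −0.10, with an interval from −0.57 to 0.37, against 1.61 ± 0.21. The intervals with estrogen leave out the size seen without it for all 3. Their interaction did not pass the threshold in the fit used here, and that of LPCAT4 did so with a term for the high-28S arrays (2.40 ± 0.27, limma adjusted p = 0.0254) and with array weights (2.32 ± 0.30, limma adjusted p = 0.0349). These genes were chosen for their difference without estrogen, which makes that side of the comparison a description.

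**Figure D5:**
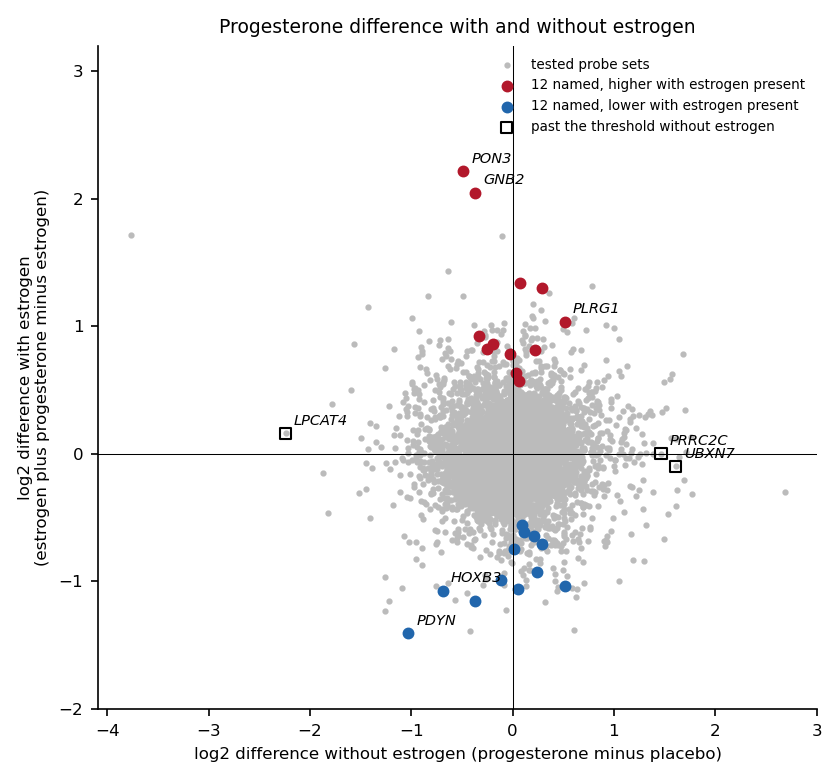
Log2 difference with estrogen present (estrogen plus progesterone minus estrogen, vertical) against that without estrogen (progesterone minus placebo, horizontal) for the 7535 tested probe sets, with the 12 named higher genes in red, the 12 named lower genes in blue and the 3 genes past the adjusted threshold without estrogen as open squares. The cloud has no slope (r = −0.01), PDYN and HOXB3 lie low on both axes, and LPCAT4, PRRC2C and UBXN7 lie far from 0 on the horizontal axis only.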

How the data were processed

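The deposited values are 1 linear intensity per probe set and array; from the values, the authors had scaled every array to a mean of about 200.1 after trimming 2% from each end. The software that summarised the probes is not given in the sources used here, nor are detection calls. The deposited intensities were converted to log2(intensity + 8.26), the offset being their pooled 10th percentile, so fold changes of dim probe sets are understated. Array medians spanned 0.20 on the log2 scale, above the limit of 0.15 for using them as they were, and the arrays were quantile normalized. The 67 array controls were set aside, as were the dimmest 40% of probe sets, judged by their mean in the whole series. A model with 1 mean per group was fitted over all 12 arrays in limma (lmFit and eBayes, version 3.58.1, under R 4.3.3). Its 2-sided p-values were adjusted by Benjamini and Hochberg's method for the 7535 probe sets left, with a threshold of 0.05. The fit was also run on simulated arrays. The differences planted there were larger than any measured between the compared groups, so that run cannot show whether smaller ones would be found. Gene names came from the table of the platform, in which 10943 probe sets had 1 gene symbol, 545 several and 1070 none. The precision of each value is limited by 3 arrays per group.

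The named genes were the 12 higher and 12 lower single-symbol probe sets of smallest p among those whose estrogen plus progesterone arrays all lay outside the range of the estrogen arrays. To these were added genes with several probe sets at unadjusted p under 0.05 in the same direction, the 2 genes of smallest p in each of 40 gene lists, and the progesterone receptors, steroid enzymes and opioid genes. Each gene of a list was taken by its brightest tested probe set. The members and lists were chosen with earlier results of these data known.

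The labels number the arrays of both groups 1 to 3. Deviations from the group means correlated between equal numbers at 0.41, 0.30 and 0.13. Arrays 2 and 3 also correlated across numbers, estrogen plus progesterone 2 with estrogen 3 at 0.21 and estrogen plus progesterone 3 with estrogen 2 at 0.12, so beyond array 1 the number does not single out a partner. Deviations sum to 0 within each group, so these correlations depend on each other and do not show a pairing. The main fit therefore had no block. As every equal-numbered pair was above 0.1, a fit with the replicate number as a block was run as an alternative. The labels do not say what a number marks. Alternatives changed the offset, normalization, filter, variance model, array weights, arrays in the fit, blocks and arrays left out.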

Additional observations from a re-analysis of the deposited data

Results flagged for a closer look

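The 28S ribosomal RNA control, an array control outside the comparison of transcripts, read 1354 on estrogen plus progesterone array 1 and 841 on estrogen array 1, above every placebo array, of which the highest read 90.8. Limma's array weights, which average near 1, were 0.46 for estrogen plus progesterone array 1 and 0.27 for estrogen array 1.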

How the results depend on the processing

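The direction of the 24 genes named for separated groups follows from their choice and says nothing about stability. The only call among named genes was GNB2 without estrogen replicate 2, where 2 probe sets were called. The other was a STK39 probe set at 1.81 ± 0.21 (limma adjusted p = 0.0181). A brighter STK39 probe set was at −0.03 ± 0.37 in the main fit of all 12 arrays. The adjusted count was otherwise 0, from 0 to 2 with each array left out in turn. The unadjusted count of 216 was 443 without a filter on dim probe sets, 120 with the lowest 60% left out, 541 with array weights, 355 with a term for the high-28S arrays and 340 without them. It was 350 with the replicate block in the 6 arrays and 234 with it in all 12; the block changed no other call. With each array left out it ran from 207 to 472, the highest without estrogen array 1. The count of probe sets whose arrays did not overlap was 928 without a filter, 312 with the lowest 60% left out, 2890 without both high-28S arrays and 1009 to 1895 with each array left out, larger in the last settings because fewer arrays must separate. The interaction had 0 calls, but 1 without a filter (a probe set with no gene name) and 1 with the high-28S term (LPCAT4). With array weights it had 2, LPCAT4, and KIFC1 at −2.52 ± 0.34. A brighter KIFC1 probe set lay on the opposite side, with an interaction of 0.73 ± 0.45 in the main fit. The causes were not tested. Medians of gene lists, recalculated after the data were seen, moved beyond their spread in 14 of 760 values. With all 3 arrays per group and dim probe sets near the offset, no difference passed the adjusted threshold. The highest, 2.22 on the log2 scale, had a standard error of 0.65.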

Other observations

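Further gene groups held no gene past the adjusted threshold with estrogen plus progesterone against estrogen. Oxidative phosphorylation had 19 higher and 28 lower of 47 measured genes with a median log2 difference of −0.02; SDHA, the flavoprotein of complex II, was at −0.38 ± 0.18 (SE). Glycolysis and the citric acid cycle had 12 higher and 16 lower of 28, with the enolase ENO1 at 0.23 ± 0.14. Purine synthesis, the pathway of ADSL, had 5 higher and 10 lower of 15, and PRPS1, which makes the ribose phosphate donor of that pathway, lay opposite to ADSL at 0.72 ± 0.34. Antioxidant enzymes were even, 12 higher and 12 lower of 24, although the microsomal glutathione transferases MGST2 and MGST3 were both lower, at −0.64 ± 0.28 and −0.43 ± 0.21.

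In signalling lists, cyclic AMP, kinase A, kinase C and CREB genes had 12 higher and 15 lower of 27; PRKAR1B, a neuronal regulatory subunit of kinase A, was at −0.46 ± 0.22 with arrays that did not overlap. Steroid receptor cofactors had 9 higher and 6 lower of 15, with the acetyltransferase EP300 at 0.35 ± 0.21. Growth factors and neurotrophins had 15 higher and 18 lower of 33, and interferon and antigen presentation genes 8 higher and 13 lower of 21, with medians of −0.02 and −0.07. Over all 5499 measured genes 48.7% were higher. Among the lists of this section the share ran from 33.3% for purine synthesis to 60% for steroid receptor cofactors.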
